A study of Mus musculus with 15 samples.

Results

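p53, its inhibitors and its direct targets were followed as a set of 10 genes across 15 mouse tumors. They are Trp53, which encodes p53, Cdkn2a, which encodes Arf and Ink4a, the p53 inhibitors Mdm2 and Mdm4, and the target genes Cdkn1a, Ccng1, Sesn2, Zmat3, Phlda3 and Eda2r, with Mdm2 counted as a target as well, which makes 7 targets. The genes were listed by name with earlier results of these data known, no measured value entered the rule, and all 10 were among the 23329 genes counted. All 10 also had more than 1 CPM (reads scaled to a common library total) in at least 3 tumors, the filter that 14880 genes passed. The question was whether the pathway differed between the groups, and whether any single tumor combined a high level of Cdkn2a with low levels of the p53 targets.

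The tumors were lymphomas and neuroblastomas, each with or without caspase-2, and the RNA came from 1 tumor of each of 15 mice. The authors had sequenced 4 tumors of each genotype. They removed 1 EμMyc/Casp2-/- tumor as an outlier that correlated poorly with its replicates, and that tumor is not among the 15. In EμMyc mice the immunoglobulin heavy chain enhancer drives Myc in B lineage cells, and their lymphomas came from cervical lymph nodes of mice with a C57BL/6 background. Th-MYCN mice express human MYCN from a tyrosine hydroxylase promoter, which is active in sympathetic neuroblasts, and their paraspinal thoracic tumors, picked for having few or no blood vessels, came from a Sv129/C57BL6 background. The groups were 4 EμMyc lymphomas with wild type Casp2 (onset 13, 13, 13 and 19 weeks), 3 EμMyc/Casp2-/- lymphomas (9, 8 and 12 weeks), 4 Th-MYCN neuroblastomas with wild type Casp2 (21, 13, 10 and 15 weeks) and 4 Th-MYCN/Casp2-/- neuroblastomas (15, 18, 24 and 15 weeks). Every tumor therefore carried a Myc or MYCN transgene, and tumor type could not be told apart from tissue, transgene and strain. Single tumors are named as in the labels, so that EuMyc829 is an EμMyc tumor and EuMycC2ko245 an EμMyc/Casp2-/- tumor.

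p53 is a transcription factor that stops the cell cycle or triggers cell death when DNA is damaged or an oncogene is active. Mdm2 is a ubiquitin ligase that marks p53 for destruction, and is itself a p53 target, which closes a feedback loop, while Mdm4 binds p53 and blocks its activity. The Cdkn2a locus makes p19Arf, which holds Mdm2 away from p53 and is induced by Myc, and p16Ink4a, which inhibits Cdk4 and Cdk6. Because p53 represses Arf, cells that have lost p53 function commonly accumulate Arf transcript, and defects in Arf or p53 are frequent in lymphomas of EμMyc mice. Caspase-2 is a protease that the PIDDosome activates and that can cleave Mdm2.

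The 4 promoters below are shown because each of them held the p53 half-site, the decamer of which a pair makes a p53 response element. Promoter windows from 250 bases before to 50 bases after the start of transcription (RefSeq, GRCm38.p6) were found for 9 of the 10 genes, with 12 windows in all, and none was found for Zmat3. The half-site, searched by its consensus on both strands and named by it alone, lay in 4 windows of 4 genes, and in 8.36% of all 32851 promoters. It began 186 bases before the start of Mdm2, 185 before Ccng1, 75 before Trp53, and 73 and 51 before the upstream start of Cdkn1a. The Myc-type E-box CACGTG, which reads the same on both strands, lay 10 bases after the start of Trp53 and 44 after that of Eda2r, clear of any half-site, and in 7.15% of all promoters. A match is a description of these letters and not a shown binding site. The 250 bases before each start are printed in the direction of transcription, with the half-sites in capitals, from chr17:29090729-29090978 on the plus strand for Cdkn1a, chr10:117710759-117711008 on the minus strand for Mdm2, chr11:40755287-40755536 on the minus strand for Ccng1 and chr11:69580109-69580358 on the plus strand for Trp53.
Cdkn1a: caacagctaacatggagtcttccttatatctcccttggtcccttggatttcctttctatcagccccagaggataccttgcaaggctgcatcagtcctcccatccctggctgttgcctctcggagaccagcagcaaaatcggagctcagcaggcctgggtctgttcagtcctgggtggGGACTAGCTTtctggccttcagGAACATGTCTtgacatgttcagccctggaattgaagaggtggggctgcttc
Mdm2: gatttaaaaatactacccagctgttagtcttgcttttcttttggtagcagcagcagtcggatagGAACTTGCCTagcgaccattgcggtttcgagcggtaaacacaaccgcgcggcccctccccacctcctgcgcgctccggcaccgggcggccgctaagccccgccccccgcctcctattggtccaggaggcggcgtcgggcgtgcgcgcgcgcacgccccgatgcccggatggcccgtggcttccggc
Ccng1: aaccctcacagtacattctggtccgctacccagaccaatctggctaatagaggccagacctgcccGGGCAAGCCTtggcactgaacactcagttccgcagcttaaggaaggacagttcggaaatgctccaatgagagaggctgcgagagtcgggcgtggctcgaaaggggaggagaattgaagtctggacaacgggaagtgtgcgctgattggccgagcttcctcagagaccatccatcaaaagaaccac
Trp53: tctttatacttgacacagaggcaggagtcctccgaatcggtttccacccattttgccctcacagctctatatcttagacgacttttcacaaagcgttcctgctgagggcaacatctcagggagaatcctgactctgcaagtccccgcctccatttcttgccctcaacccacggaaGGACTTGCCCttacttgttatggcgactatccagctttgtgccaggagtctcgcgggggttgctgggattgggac

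The identity of the tumors was checked on Myc and Mycn, on Casp2 and on cell type markers. Myc was at 498 to 1910 CPM in the lymphomas and 4.69 to 15.6 CPM in the neuroblastomas, and Mycn at 0.0855 to 2.15 CPM and 230 to 430 CPM. Reads were aligned to the mouse genome, so human MYCN was counted only where its reads aligned to Mycn. Counts per gene cannot tell transgene from endogenous transcripts. Casp2 was at 125 to 203 CPM in EμMyc tumors and 51.9 to 76.1 CPM in EμMyc/Casp2-/- tumors, which did not overlap, although its FDR was 0.0536 in edgeR's quasi-likelihood test (QLF). In neuroblastomas Casp2 was at 76.0 to 125 CPM and 39.6 to 80.2 CPM, which overlapped (QLF FDR 0.327). All 6 B cell markers were higher in the lymphomas and all 8 sympathetic neuroblast markers lower, in both genotypes (QLF, FDR under 0.05). Libraries held 4940464 to 17638029 reads on genes in the strand column used. EuMycC2ko215 stood apart, with the fewest reads, 11.2% unmapped reads against 2.26 to 3.89% in the other 14 tumors, and 8 T cell markers summing to 1390 CPM against 103 to 313 CPM in the other lymphomas. Long transcripts also read low in 3 libraries, where the median deviation of genes with at least 6783 exon bases minus that of genes with at most 2737 was -0.55 (EuMycC2ko215), -0.30 (MYCNC2ko176) and -0.26 (MYCNC2ko180) log2 units, against -0.10 to 0.24 in the other 12. All values are on the scale of CPM after scaling by trimmed mean of M-values (TMM), and fewer cells of a type and less RNA per cell cannot be told apart in such whole-tumor samples.

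**Figure D1:**
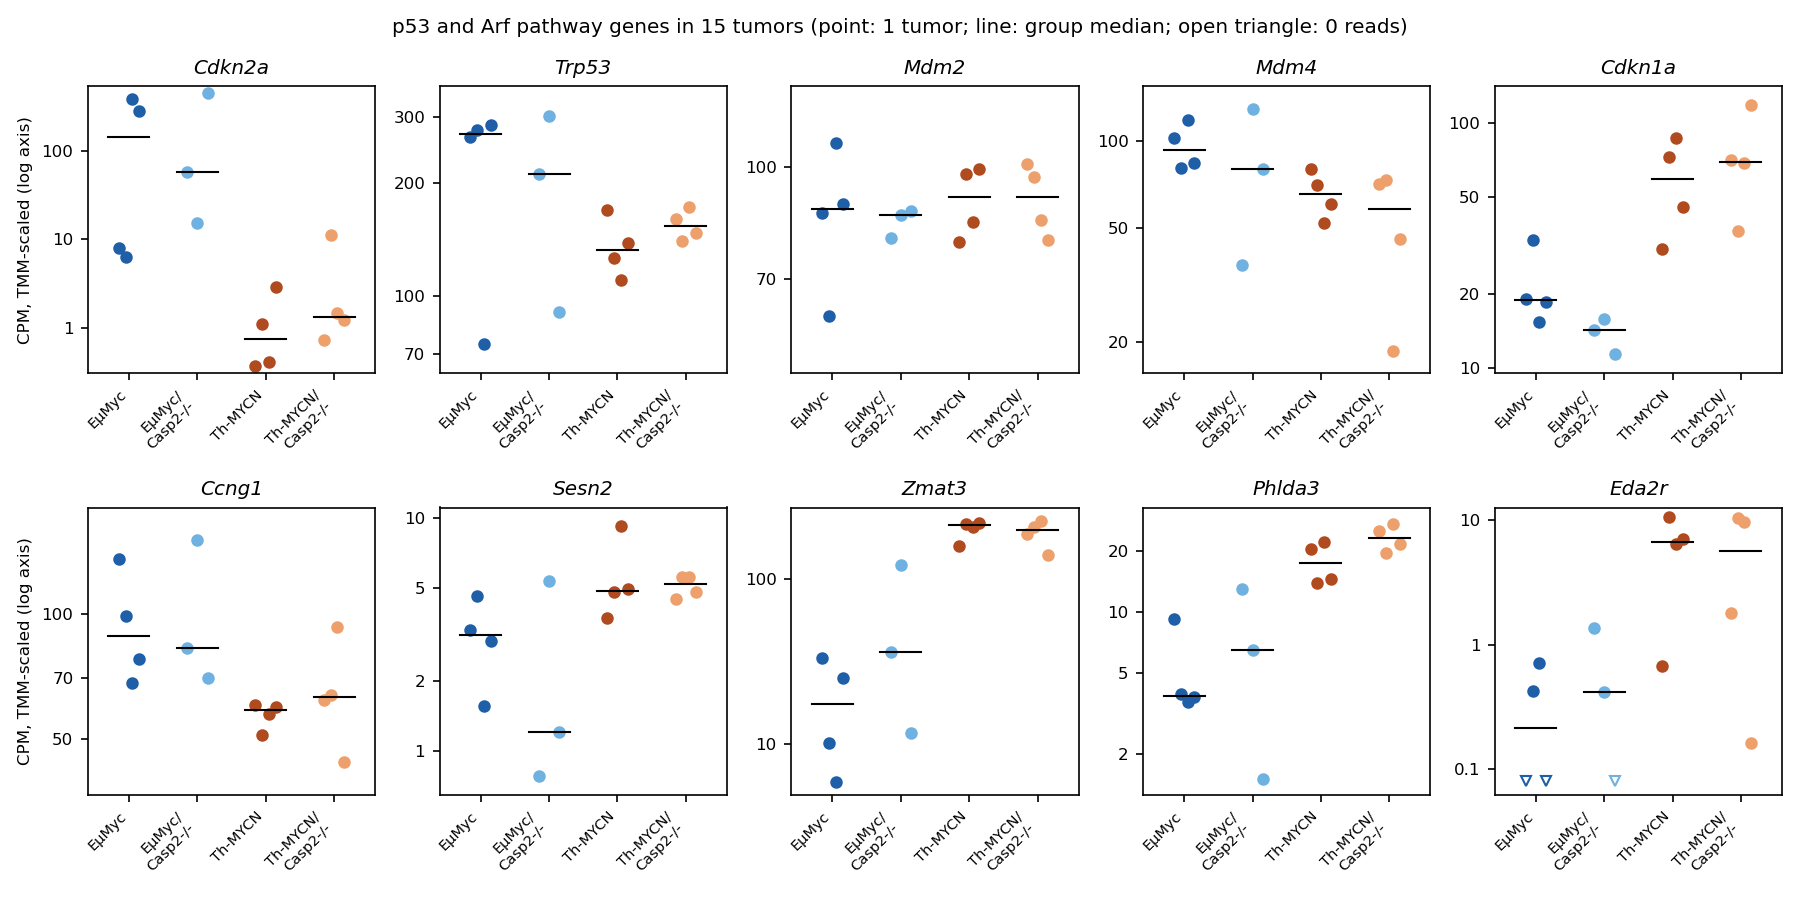
Level of each of the 10 genes in CPM, on log axes that differ between panels, for the 4 groups named under each panel. Points are single tumors, lines are group medians and open triangles are tumors with 0 reads; Cdkn2a spans 6.24 to 451 CPM within the lymphomas, whereas Mdm2 stays between 62.2 and 108 CPM in all 15 tumors.

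Cdkn2a was the gene that varied most, both between the tumor types and among the lymphomas. In the EμMyc tumors it was at 8.05 CPM in EuMyc614, 6.24 in EuMyc743b, 389 in EuMyc829 and 282 in EuMyc835. In the EμMyc/Casp2-/- tumors it was at 57.6 CPM in EuMycC2ko215, 15.4 in EuMycC2ko239 and 451 in EuMycC2ko245. EuMyc829, EuMyc835 and EuMycC2ko245 were thus far above the other 4 lymphomas, and the high tumors came from both genotypes. In the neuroblastomas it was at 0.366, 1.09, 0.404 and 2.90 CPM in Th-MYCN tumors, and at 0.720, 11.3, 1.45 and 1.22 CPM in Th-MYCN/Casp2-/- tumors, the 11.3 CPM being that of MYCNC2ko144. Each lymphoma lay above each neuroblastoma of its own Casp2 genotype. Cdkn2a lies at chr4:89274471-89294653 (minus strand, GENCODE vM21, GRCm38), and counts per gene cannot tell Arf from Ink4a transcripts.

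The difference in Cdkn2a between tumor types passed the test in both genotypes, although the lymphomas alone spanned 72.2-fold. EμMyc exceeded Th-MYCN by 7.16 log2 units (SE 1.61; QLF FDR 0.00129), and EμMyc/Casp2-/- exceeded Th-MYCN/Casp2-/- by 5.53 (SE 1.49; QLF FDR 0.00506). The second difference rested in part on EuMycC2ko245, without which it was 3.25 with an FDR of 0.0582. Casp2 genotype gave no such difference, with 0.03 log2 units in lymphomas (95% confidence interval -2.69 to 2.75) and 1.66 in neuroblastomas (-1.40 to 4.73), intervals that leave room for changes of several fold in either direction. Without EuMycC2ko245 the value in lymphomas was -2.24, and without MYCNC2ko144 the value in neuroblastomas was -0.08.

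Trp53 transcript was low in a pair of the lymphomas with high Cdkn2a and in no other lymphoma. It was at 265, 276, 74.5 and 286 CPM in EuMyc614, EuMyc743b, EuMyc829 and EuMyc835. In EuMycC2ko215, EuMycC2ko239 and EuMycC2ko245 it was at 211, 302 and 90.5 CPM. EuMyc829 and EuMycC2ko245 were therefore below all 8 neuroblastomas, which were at 110 to 172 CPM, while the other 5 lymphomas were above them. Between the types Trp53 differed by 0.73 log2 units in tumors with wild type Casp2 (SE 0.369; QLF FDR 0.0999) and by 0.38 in Casp2-/- tumors (SE 0.395; QLF FDR 0.428). Without EuMyc829 the first difference was 1.03 with an FDR of 0.00635. For Casp2 loss the difference was -0.16 in lymphomas (95% confidence interval -1.01 to 0.68) and 0.19 in neuroblastomas (-0.60 to 0.97).

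**Figure D2:**
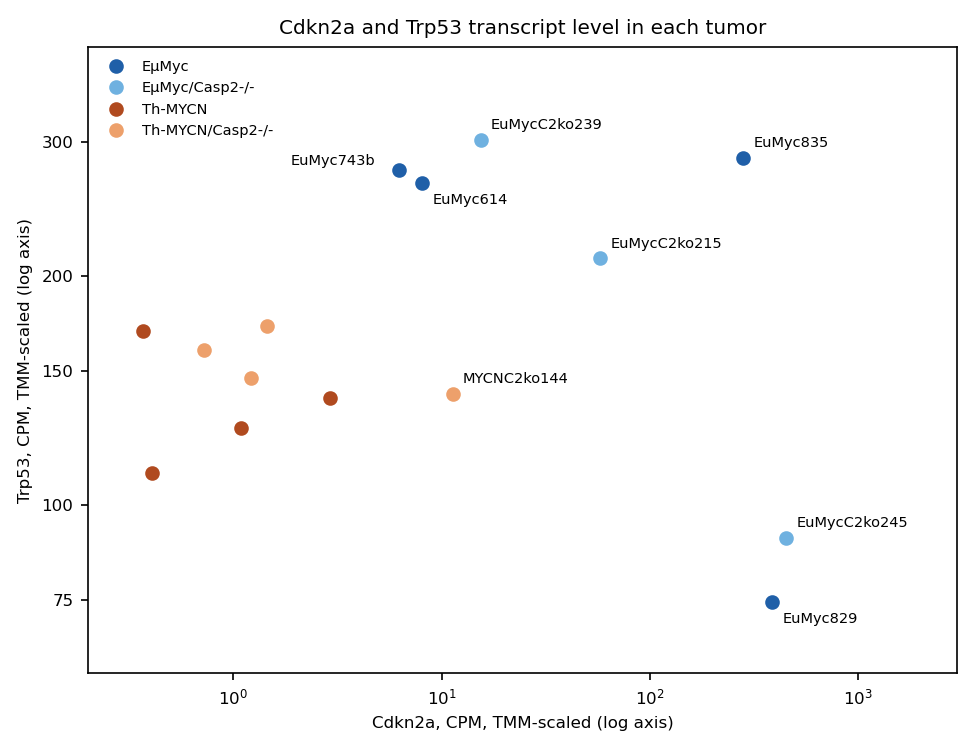
Trp53 against Cdkn2a, both in CPM on log axes, with 1 point for each of the 15 tumors and a color for each group. EuMyc829 and EuMycC2ko245 lie at the lower right, with Cdkn2a at 389 and 451 CPM and Trp53 at 74.5 and 90.5 CPM, while EuMyc835 has Cdkn2a at 282 CPM with Trp53 at 286 CPM.

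Set side by side per kilobase of exon, the order of the locus and its effector turned over between lymphomas. In EuMyc743b Cdkn2a was at 5.33 CPM per kilobase and Trp53 at 68.2. In EuMyc829 these levels were 332 and 18.4, and in EuMycC2ko245 they were 385 and 22.4. EuMyc835 had both at a high level, with 241 for Cdkn2a and 70.7 for Trp53.

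Mdm2, the ubiquitin ligase of p53, was the least variable of the 10 genes. It was at 86.3, 62.2, 108 and 89.0 CPM in EμMyc tumors, at 79.9, 86.0 and 87.1 in EμMyc/Casp2-/- tumors, at 78.7, 97.8, 84.0 and 99.6 in Th-MYCN tumors, and at 101, 97.1, 84.6 and 79.4 in Th-MYCN/Casp2-/- tumors. All 4 groups overlapped. Casp2 loss gave -0.03 log2 units in lymphomas (95% confidence interval -0.42 to 0.35) and 0.01 in neuroblastomas (-0.35 to 0.36). The difference between types was -0.06 with wild type Casp2 (-0.41 to 0.29) and -0.10 without it (-0.48 to 0.28). Its fitted sign changed under other scalings and with the counts of the other strand.

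Mdm4, which inhibits p53 without marking it for destruction, was at 81.0 to 119 CPM in EμMyc tumors and 51.7 to 80.3 in Th-MYCN tumors, which did not overlap. The fitted difference of 0.56 log2 units (SE 0.381) had an FDR of 0.219 in the fit over all tumors and of 0.0228 in a fit of these 8 tumors alone. EuMycC2ko215 at 36.9 CPM and MYCNC2ko176 at 18.6 CPM were the lowest of their types, and Mdm4 has 14798 exon bases, the most of the 10 genes. These are the libraries in which long transcripts read low, and the part of that in the Mdm4 values was not tested. Without EuMycC2ko215 the difference between the types in Casp2-/- tumors went from 0.66 (QLF FDR 0.178) to 1.08 (QLF FDR 0.0272).

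Among the targets, Zmat3, an RNA-binding protein that p53 induces, had the lowest FDR between the tumor types with wild type Casp2. It was at 33.0, 10.1, 5.91 and 25 CPM in EμMyc tumors and at 36.3, 121 and 11.6 CPM in EμMyc/Casp2-/- tumors. The neuroblastomas were at 159, 215, 208 and 218 CPM (Th-MYCN) and 187, 207, 226 and 139 CPM (Th-MYCN/Casp2-/-). Every neuroblastoma was above every lymphoma, and EuMycC2ko239 was the lymphoma nearest to them. Zmat3 was lower in lymphomas by a log2 fold change of -3.44 with wild type Casp2 (SE 0.607; QLF FDR 0.000167) and of -1.74 without Casp2 (SE 0.626; QLF FDR 0.0262). The second call was lost without EuMycC2ko215 (-1.45, FDR 0.103) and without EuMycC2ko245 (-1.27, FDR 0.0759), and without EuMycC2ko239 the difference was -2.94. Zmat3 has 11435 exon bases, and the part of the low reading of long transcripts in its values was not tested.

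Cdkn1a encodes p21, the Cdk inhibitor through which p53 arrests the cell cycle. It was at 19.1, 33.4, 15.4 and 18.6 CPM in EμMyc tumors and at 14.3, 15.8 and 11.4 CPM in EμMyc/Casp2-/- tumors. In neuroblastomas it was at 30.5, 72.6, 87.0 and 45.5 CPM with wild type Casp2 and at 70.3, 36.2, 68.7 and 118 CPM without it. The EμMyc and Th-MYCN groups overlapped through EuMyc743b and MYCN175, and the Casp2-/- groups did not. The difference was -1.45 log2 units in tumors with wild type Casp2 (SE 0.374; QLF FDR 0.00360) and -2.41 in Casp2-/- tumors (SE 0.435; QLF FDR 0.000229). In the annotation 273 exon bases of Cdkn1a are shared with AC167363.2 on the opposite strand, whose reads could not be told apart in libraries that do not mark strand.

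Phlda3, which blocks Akt at the membrane, and Eda2r, a death receptor of the tumor necrosis factor family, were also lower in lymphomas. Phlda3 was at 9.27, 3.94, 3.62 and 3.82 CPM in EμMyc tumors and 13.1, 6.51 and 1.51 CPM in EμMyc/Casp2-/- tumors, against 13.9 to 22.2 and 19.6 to 27.4 CPM in the neuroblastomas. Its log2 fold change was -1.78 with wild type Casp2 (SE 0.486; QLF FDR 0.00505) and -1.76 without (SE 0.541; QLF FDR 0.0114). Eda2r had 0, 5, 9 and 0 reads in EμMyc tumors and 7, 5 and 0 in EμMyc/Casp2-/- tumors. A count of 3 reads corresponded to 0.17 to 0.607 CPM in these libraries, which covers counting error only, so Eda2r was near the limit of detection in lymphomas. It was at 0.672, 10.5, 6.46 and 6.98 CPM in Th-MYCN tumors and 1.80, 10.4, 9.55 and 0.162 CPM in Th-MYCN/Casp2-/- tumors, and the low values of MYCN175 and MYCNC2ko180 overlapped those of lymphomas. Its difference passed in tumors with wild type Casp2 (-4.33 log2 units, SE 1.31, QLF FDR 0.00989) but not in Casp2-/- tumors (-3.36, SE 1.44, QLF FDR 0.0569). The likelihood ratio test of edgeR and DESeq2 gave the second difference an FDR of 0.0422 and 0.0231, and it was -4.53 without EuMycC2ko215 (QLF FDR 0.0418) and -3.71 without MYCNC2ko180 (QLF FDR 0.0278).

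Ccng1, a cyclin that recruits a phosphatase to Mdm2, was the target that went the other way. It was at 136, 98.9, 68.3 and 78.1 CPM in EμMyc tumors and 82.8, 151 and 70.1 CPM in EμMyc/Casp2-/- tumors, against 51.1 to 60.3 CPM in Th-MYCN and 43.9 to 93.1 CPM in Th-MYCN/Casp2-/- tumors. It was higher in EμMyc tumors by 0.74 log2 units (SE 0.275; QLF FDR 0.0297), a call that was lost when any 1 of EuMyc614, EuMyc743b, MYCN235, MYCN332 and MYCN391 was left out (FDR 0.0505 to 0.103). In Casp2-/- tumors the difference was 0.63 (SE 0.294; QLF FDR 0.0797), and 0.82 without EuMycC2ko245 (FDR 0.0383) or 0.83 without MYCNC2ko176 (FDR 0.0293). Sesn2, a stress-induced inhibitor of mTORC1 signaling, was at 1.57 to 4.62 CPM in EμMyc tumors, 0.781, 5.34 and 1.21 CPM in EμMyc/Casp2-/- tumors and 3.73 to 9.23 CPM in neuroblastomas. Its differences between types, -0.86 and -1.02 log2 units, had FDRs of 0.172 and 0.148 in the QLF test, and without EuMycC2ko239 the second was -2.26 with an FDR of 0.00429.

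**Figure D3:**
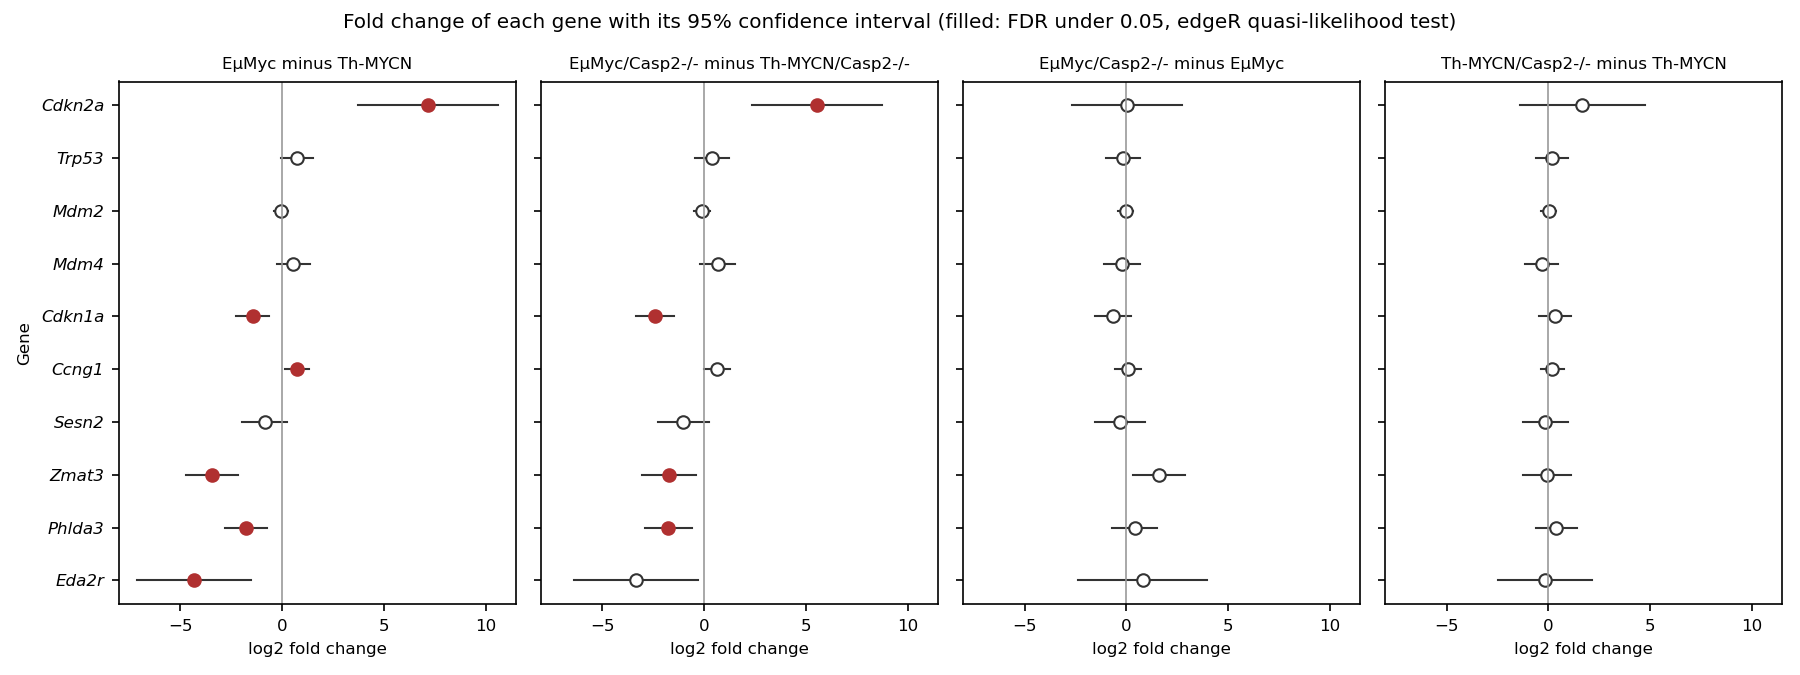
Log2 fold change of each gene in 4 comparisons, with 1 panel for each; points are fitted values, bars are 95% confidence intervals, and filled points have an FDR under 0.05 in the QLF test over 14880 genes. In the first panel 2 genes are higher and 4 lower, in the second 1 is higher and 3 lower, and in the panels of Casp2 loss 0 genes pass.

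Counted together, the 10 genes were called between tumor types about as often as all genes. In tumors with wild type Casp2, 2 were higher in lymphoma (Cdkn2a and Ccng1) and 4 lower (Cdkn1a, Zmat3, Phlda3 and Eda2r), where 27.4% of all tested genes were higher and 32.9% lower. In Casp2-/- tumors 1 was higher (Cdkn2a) and 3 lower (Cdkn1a, Zmat3 and Phlda3), against 26.8% and 31.4% of all genes. The median size of the log2 fold change was 1.15 for the 10 genes and 1.02 for all genes in the first comparison, and 1.38 and 1.05 in the second. These shares are near the background, and the comparisons by type share no tumors with each other. Markers of other cells moved with tumor type too. The 8 T cell markers, all higher in lymphomas, summed to 103 to 1390 CPM there and 10.5 to 24.7 CPM in neuroblastomas, the 5 endothelial markers to 119 to 232 CPM and 18.8 to 72.3 CPM, and the 4 Schwann cell markers to 0.781 to 10.7 CPM and 24.9 to 75.7 CPM. Their part in the differences of the 10 genes was not tested.

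For loss of Casp2, 0 of the 10 genes were called in either tumor type. Casp2 itself was not called by this test in either type, so that 0 calls do not show an absence of change. In lymphomas 21 of 14880 genes, or 0.141%, had an FDR under 0.05 in the QLF test, and in neuroblastomas 5, or 0.0336%. Of the 10 genes 1 had an unadjusted p under 0.05 in lymphomas and 0 in neuroblastomas, and the likelihood ratio test and DESeq2 also called 0 in both. The 1 gene was Zmat3, which was higher in EμMyc/Casp2-/- tumors by 1.62 log2 units (95% confidence interval 0.34 to 2.90) with an unadjusted p of 0.0166 and an FDR of 0.418 in edgeR's QLF test. Its groups overlapped, and without EuMycC2ko239 the difference was 0.36. For the other genes apart from Cdkn2a and Eda2r the fitted differences were from -0.65 (Cdkn1a) to 0.42 (Phlda3) in lymphomas and from -0.33 (Mdm4) to 0.39 (Phlda3) in neuroblastomas. Eda2r, at its low counts, gave 0.81 (95% confidence interval -2.36 to 3.98) and -0.16 (-2.46 to 2.14).

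The effect of Casp2 loss was not shown to differ between tumor types for any of the 10 genes. In the test of the interaction, 0 of 10 had an FDR under 0.05, 0 had an unadjusted p under 0.05, and the likelihood ratio test and DESeq2 called 0, against 0.0538% of all genes in the QLF test. The largest estimates were 1.70 log2 units for Zmat3 (95% confidence interval -0.03 to 3.43) and -1.63 for Cdkn2a (-5.75 to 2.48), and that of Mdm2 was -0.04 (-0.56 to 0.48). The interaction uses the same tumors as the comparisons of groups.

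The pattern of lost p53 was then looked for in single tumors. Each tumor was set against the median of the other tumors of its type, on the log2 CPM scale with a prior count of 2. A tumor was said to show the pattern where Cdkn2a was at least 2-fold above that median and at least 5 of the 7 targets were below it. EuMyc829 and EuMycC2ko245 showed it, 1 from each genotype, and the other 5 lymphomas and all 8 neuroblastomas did not. No test is attached to this count, since the tumors were picked by the values themselves. Of all tested genes, 46% to 55.1% were below the median in each tumor. Stromal markers differed between the lymphomas, but not always with the pattern. All 5 fibroblast markers were below the median of the other lymphomas in EuMyc829 (median -0.34 log2 units) and in EuMycC2ko245 (-0.71). In EuMyc835 (-0.25) and EuMycC2ko215 (-0.43), which lack the pattern, 4 of the 5 fibroblast markers were below. Their summed level was 1400, 1120 and 838 CPM in EuMyc614, EuMyc743b and EuMycC2ko239, the lymphomas lowest in Cdkn2a, and 364 to 433 CPM in the other 4. All 6 macrophage markers were below in EuMycC2ko245 (median -1.04) and EuMyc835 (-0.78), and 2 of 6 in EuMyc829 (0.03). Of 5 endothelial markers, 1 was below in EuMyc829 (median 0.33), and 4 were in EuMycC2ko245 (-0.66) and in EuMyc835 (-0.13). The part of these cells in the pattern was not tested.

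In EuMyc829 Cdkn2a was 13.0-fold above the median of the other lymphomas. This deviation of 3.70 log2 units was matched or exceeded by 0.242% of all tested genes in that tumor. Trp53 was at 0.276 of the median of the other lymphomas, and 2.93% of genes were as low or lower. Of the targets, 5 of 7 were below, where 51.2% of all tested genes were. Zmat3 was at -2.25, Sesn2 at -0.93, Phlda3 at -0.47, Ccng1 at -0.41 and Cdkn1a at -0.16 log2 units. The share of genes as low or lower was 1.77% for Zmat3, 11.5% for Sesn2, 22.7% for Phlda3, 24.7% for Ccng1 and 37.1% for Cdkn1a. The rule was thus met only by counting Phlda3, Ccng1 and Cdkn1a, which deviated less than Zmat3 and Sesn2. Mdm2 was above by 0.33 and Eda2r, on 9 reads, by 1.52. The median over the 7 targets was -0.41, that of all tested genes 0.

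In EuMycC2ko245 Cdkn2a was 15.0-fold above the median of the other lymphomas and Trp53 at 0.335 of their median. Of the targets only Mdm2, at 0.02 log2 units, was not below, so that 6 of 7 were, where 51.3% of all tested genes were. Phlda3 was at -1.64, Zmat3 at -1.29, Sesn2 at -1.27, Cdkn1a at -0.58 and Ccng1 at -0.37. The share of genes as low or lower was 2.73% for Phlda3, 5.15% for Zmat3, 5.42% for Sesn2, 18.3% for Cdkn1a and 25.1% for Ccng1. Eda2r had 0 reads, as it had in EuMyc614 and EuMyc835, so that its place below the median does not set this tumor apart. The median over the 7 targets was -1.27 in this tumor. Sesn2 and Phlda3 had their lowest or next to lowest levels of all lymphomas there, at 1.21 and 1.51 CPM.

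**Figure D4:**
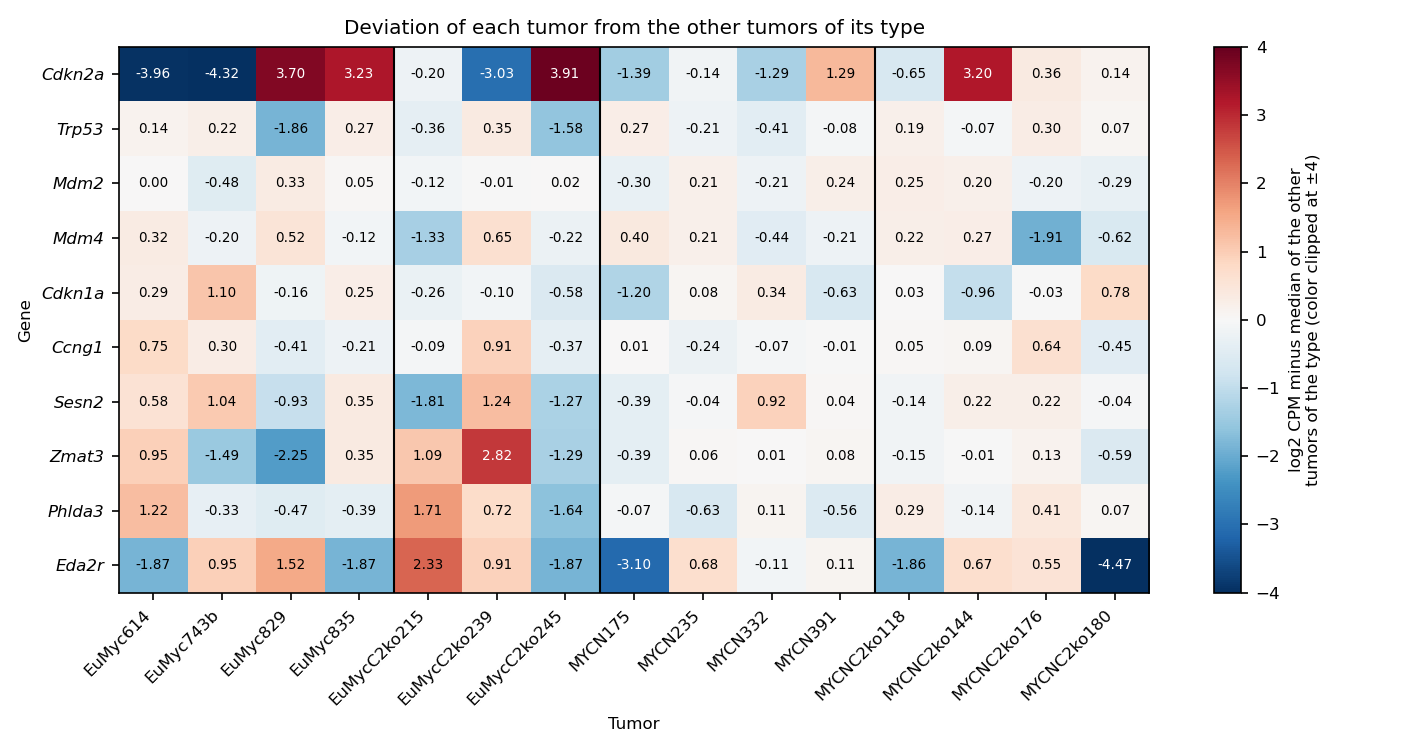
Deviation of each tumor (columns, with lines between the 4 groups) from the median of the other tumors of its type for each of the 10 genes (rows), in log2 units written in each cell. EuMyc829 and EuMycC2ko245 combine Cdkn2a at 3.70 and 3.91 with Trp53 at -1.86 and -1.58; the color scale ends at 4 units in both directions.

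EuMyc835 had the third highest level of Cdkn2a without low Trp53. Its Cdkn2a was 9.40-fold above the median of the other lymphomas and its Trp53 1.21-fold. Only 3 of the 7 targets were below (Ccng1, Phlda3 and Eda2r), and the median over the targets was 0.05. With the counts of the other strand, 5 of 7 targets lay below, with a median of -0.09, and this tumor then met the rule as well, so that its place depends on values close to the median.

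Among the neuroblastomas, MYCNC2ko144 had Cdkn2a 9.18-fold and MYCN391 2.45-fold above the median of the other tumors of that type. In both, 3 of 7 targets were below, and Trp53 was at 0.954 and 0.944 of the median. The 6 B cell markers summed to 14.1 CPM in MYCNC2ko144 and 11.9 CPM in MYCN391, against 4.18 to 7.15 CPM in the other neuroblastomas. They summed to at least 1890 CPM in any lymphoma. Of these 6 markers, 1 was below the median of the other neuroblastomas in MYCNC2ko144 (median 1.72 log2 units) and 1 in MYCN391 (0.59). Of the 8 T cell markers, 1 was below in MYCNC2ko144 (median 1.25) and 3 were in MYCN391 (0.2). Whether such cells had a part in the Cdkn2a reads of these tumors was not tested. Low targets alone were not rare, as MYCN175 had 6 and MYCNC2ko180 had 5 of 7 below with Cdkn2a at 0.382-fold and 1.10-fold.

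The same comparison was made for further p53 targets. Of 30 such genes with enough reads, 17 were below the median of the other lymphomas in EuMyc829, 17 in EuMycC2ko245 and 20 in EuMyc835, which lacks the pattern. Of all tested genes, 51.2%, 51.3% and 48.9% were below in these tumors. The median deviations of the 30 genes were -0.06, -0.07 and -0.22 log2 units. The proapoptotic Bbc3, which encodes Puma, was at -2.01 in EuMyc829 and -1.62 in EuMycC2ko245, with 5.20 and 6.86 CPM against 12.5 to 31.3 CPM in the other lymphomas. Pmaip1, which encodes Noxa, was at -1.83 in EuMyc829 and 0.37 in EuMycC2ko245. Trp53inp1 went the other way, at 1.80 and 0.79, and so did Plk2 in EuMyc829, at 1.67. These 4 genes were picked after their values were seen.

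**Figure D5:**
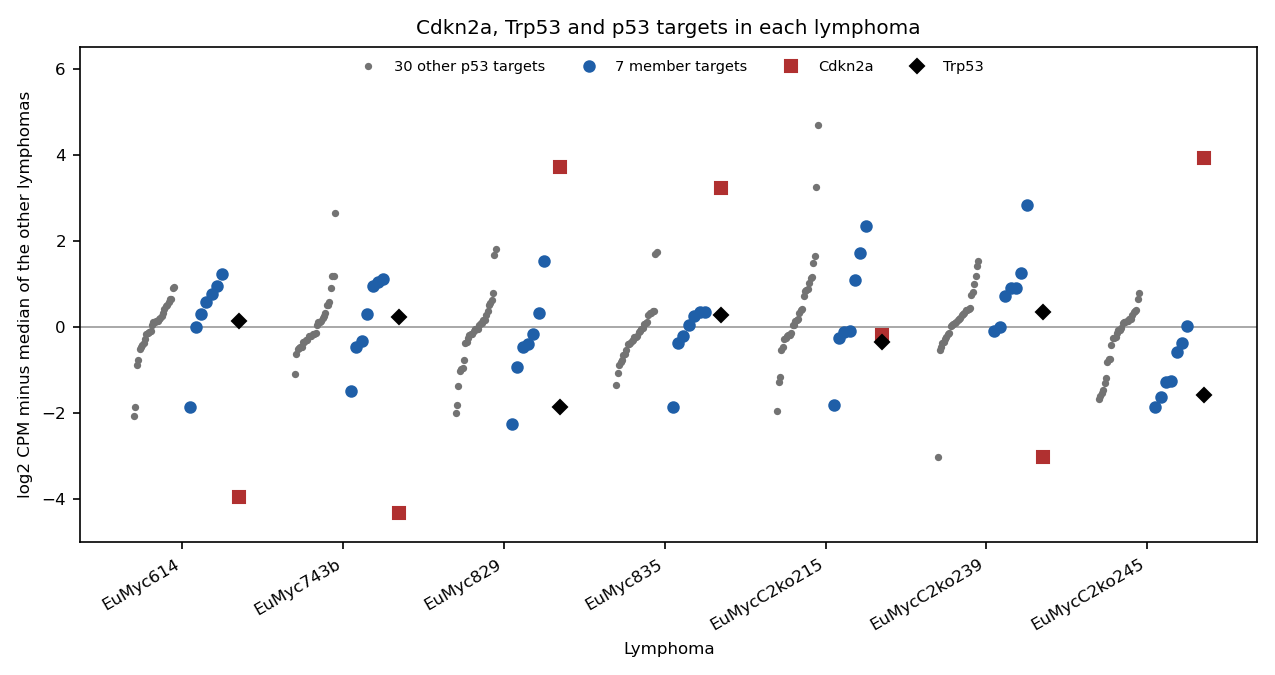
Deviation from the median of the other lymphomas, in log2 units, of Cdkn2a (squares), Trp53 (diamonds), the 7 targets (blue points) and 30 further p53 targets (gray points), in each of the 7 lymphomas. In EuMyc829 and EuMycC2ko245 the medians are -0.41 and -1.27 for the 7 targets and -0.06 and -0.07 for the 30 further targets.

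Genes around the loci did not all follow them. Of 7 tested neighbours of Trp53 on chromosome 11, the deviations in EuMyc829 ran from -0.93 to 0.43 with a median of -0.05, and in EuMycC2ko245 from -0.46 to 0.70 with a median of 0.01. Of 4 tested neighbours of Cdkn2a on chromosome 4, all lay above the median of the other lymphomas in EuMyc829 (0.64 to 2.36). The highest was Cdkn2b, which encodes the Cdk4 and Cdk6 inhibitor p15Ink4b, at 7.24 CPM against 0.668 to 3.52 CPM. In EuMycC2ko245 the 4 neighbours were at -0.01 to 0.78.

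Across tumors of a type, Cdkn2a was compared with Trp53 and each of the 7 targets, 16 relations in all, by exact permutation tests over the pairings of log2 CPM (2-sided). No relation passed after Benjamini-Hochberg adjustment, the lowest adjusted p being 0.301 for Pearson's r and 0.273 for Spearman's rho. Within the 7 lymphomas Ccng1 gave r = -0.837 (exact p = 0.0272, adjusted p = 0.301) and rho = -0.821 (exact p = 0.0341, adjusted p = 0.273), with r = -0.929 when EuMyc743b and EuMycC2ko245 were left out. Cdkn1a gave r = -0.662 (exact p = 0.0752, adjusted p = 0.301) and rho = -0.821 (exact p = 0.0341, adjusted p = 0.273), with r = -0.201 without the same tumors. Mdm2 went the other way, with r = 0.669 (exact p = 0.0685, adjusted p = 0.301) and rho = 0.75 (exact p = 0.0663, adjusted p = 0.35), and r = 0.614 without them. Trp53 gave r = -0.723 (exact p = 0.0746, adjusted p = 0.301) and rho = -0.571 (exact p = 0.2, adjusted p = 0.494), with r = -0.607 when EuMyc743b and EuMycC2ko245 were left out. Within the 8 neuroblastomas Trp53 gave r = -0.0124 and rho = -0.0238 (exact p = 0.976 and 0.977, adjusted p = 1 and 0.977), with r = 0.413 without MYCN175 and MYCNC2ko144. Each type pools both Casp2 genotypes, and groups of 3 and 4 tumors were too small for a value within a genotype.

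The 30 further p53 targets were called between tumor types about as often as all genes. In EμMyc against Th-MYCN tumors 10 were higher and 7 lower, where 27.4% and 32.9% of all tested genes were, with a median log2 fold change of 0.33 where that of all genes was -0.04. In Casp2-/- tumors 13 were higher and 5 lower, against 26.8% and 31.4% of all genes, with a median of 0.60 against -0.05 for all genes. Tap1, a peptide transporter of antigen presentation, was at 74.8 to 157 CPM in lymphomas and 2.23 to 7.91 CPM in neuroblastomas (log2 fold change 4.18, SE 0.340, QLF FDR 5.49e-08 with wild type Casp2). Btg2, an antiproliferative factor, was higher by 3.54 (SE 0.375; QLF FDR 9.72e-07), and Ak1, an adenylate kinase of energy metabolism, was lower, with -5.34 (SE 0.433; QLF FDR 5.34e-08). For Casp2 loss 0 of the 30 were called in either type, and 0 in the interaction (QLF, FDR under 0.05). The lowest p in lymphomas was that of Bax, a pore-forming effector of apoptosis, at 0.84 log2 units (edgeR QLF FDR 0.335), where EuMycC2ko215, the tumor with T cell markers, was at 391 CPM and the other lymphomas at 116 to 162 CPM. In neuroblastomas the lowest p was that of Lrdd, the PIDDosome component Pidd1, at 0.53 (edgeR QLF FDR 0.569), and in the interaction that of 9630033F20Rik, at 1.13 (edgeR QLF FDR 0.696).

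The other lists are read against the same shares of all genes, 27.4% higher and 32.9% lower with wild type Casp2 and 26.8% and 31.4% without it, and nothing particular to a list was tested. Of 9 tested regulators of Arf transcription, 3 were higher and 5 lower in EμMyc than in Th-MYCN tumors, and 3 higher and 2 lower in Casp2-/- tumors. Tbx2 and Bmi1, which repress the locus, were lower by log2 fold changes of -6.75 (SE 0.370; QLF FDR 9.13e-10) and -1.33 (SE 0.264; QLF FDR 0.000476), and Zbtb7a, also a repressor, was higher by 1.66 (SE 0.262; QLF FDR 5.95e-05). Tbx2 was at 1.75 to 5.86 CPM in lymphomas and 168 to 374 CPM in neuroblastomas. Among 14 regulators of p53, 7 were higher and 1 lower with wild type Casp2, and 8 and 1 without it. With wild type Casp2 they were led by Npm1 (1.64, QLF FDR 3.22e-05), a nucleolar partner of Arf, the kinase Chek2 (1.46, QLF FDR 5.00e-05) and the ribosomal protein Rpl11 (1.55, QLF FDR 0.000164), which binds Mdm2. Rpl11 was counted at a low level, 8.01 to 16.9 CPM in lymphomas and 4.46 to 7.56 CPM in neuroblastomas, against 1190 to 1780 CPM and 239 to 597 CPM for Npm1. Of 5 related Cdk inhibitors, Cdkn1b (-1.21, QLF FDR 9.65e-07) and Cdkn2d (-1.01, QLF FDR 0.0147) were lower, Cdkn1c had -1.80 (QLF FDR 0.0663), and in Casp2-/- tumors 3 were lower. Of 12 cell cycle genes that p53 represses through p21, Aurkb (0.93, QLF FDR 0.000834) and Mki67 (0.92, QLF FDR 0.00371) were higher, Cdc25c (-1.20, QLF FDR 7.36e-05) was lower and 9 did not pass, and in Casp2-/- tumors 2 were higher and 1 lower. For loss of Casp2 and for the interaction, 0 genes of each of these lists were called (QLF, FDR under 0.05). The lowest p for Casp2 loss in lymphomas belonged to Bmi1 (-0.52) among the Arf regulators, Rpl11 (-0.54) among those of p53, Cdkn1c (-1.03) among the Cdk inhibitors and Cenpa (0.41) among the cell cycle genes, with QLF FDRs of 0.628 to 0.803. In neuroblastomas these were Tbx3 (-1.82), Chek2 (-0.46), Cdkn2c (0.85) and Plk1 (-0.27), with FDRs of 0.635 to 0.932, and in the interaction Tbx3 (2.47), Rpl11 (-0.73), Cdkn2c (-1.10) and Cenpa (0.62), with FDRs of 0.652 to 0.766. Trp63 and Trp73, the relatives of p53, were too low to be tested, although Trp63 was at 10.7 CPM in EuMycC2ko215 and at most 0.55 CPM in the other 14 tumors.

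The genes around the loci were compared between the types in the same way. Of the neighbours of Cdkn2a, Mtap was higher (1.85, QLF FDR 6.85e-06) and Mllt3 lower (-2.16, QLF FDR 1.89e-05) in EμMyc tumors, while Cdkn2b had 1.55 (QLF FDR 0.0818). Of the 7 neighbours of Trp53, 5 were lower and 0 higher, led by Efnb3 (-4.97, QLF FDR 1.83e-10), Fxr2 (-1.39, QLF FDR 5.33e-07) and Atp1b2 (-4.02, QLF FDR 4.81e-06), and in Casp2-/- tumors 4 were lower, where 32.9% and 31.4% of all tested genes were lower. Trp53 itself was not called in either comparison. For Casp2 loss 0 of these neighbours were called. The lowest p was that of Klhl9 (-0.60) and Wrap53 (0.45) in lymphomas and of Mllt3 (1.00) and Atp1b2 (1.00) in neuroblastomas (QLF FDR 0.327 to 0.676). In the interaction 0 were called, the lowest p being that of Mllt3 (-1.09, QLF FDR 0.587) and Atp1b2 (-1.67, QLF FDR 0.622).

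The genes whose levels followed a member most closely were named by Pearson's r over the 15 tumors after the mean of each tumor type had been subtracted, as a description that shares libraries and depth. For Cdkn2a they included 6330549D23Rik (0.867), P2ry10 (0.855), Ly6d (0.837) and Gripap1 (0.826). P2ry10, a receptor of lymphocytes, was at 29.8, 21.1 and 31.7 CPM in EuMyc829, EuMyc835 and EuMycC2ko245, at 27.0 in EuMycC2ko215, and at 3.42 to 7.26 CPM in the other 3 lymphomas. For Mdm2 they were Snw1 (0.912), Zfp40 (0.847), Tfam (0.819), Pnrc1 (0.817) and Pnpla8 (0.813). For Cdkn1a they were Gstm6 (0.83), Abcf1 (0.774), Eif3h (0.770), Frat2 (0.762) and Baiap2 (0.755), and none of the 10 members was among these. Gstm6 was near the limit of detection in lymphomas, at 0 to 0.0855 CPM, and at 0.122 to 2.16 CPM in neuroblastomas.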

How the data were processed

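Poly(A) RNA of 15 tumors had been sequenced by the authors as single reads of 50 bases, checked with FastQC and aligned with STAR to mm10/GRCm38. The authors deposited raw counts of reads for 23329 genes, on either strand and on each strand, without normalization. The second-strand count was used here, as in the study. It held 48.8 to 49.3% of stranded reads, so that the libraries did not mark strand. The release of the annotation is not given in the sources used here; positions came from GENCODE vM21 by symbol (89.8% placed), and promoters from RefSeq.

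The filter asked for more than 1 CPM in 3 or more tumors and left 14880 genes. A model of 4 group means was fitted to all 15 tumors in edgeR 4.0.16 with TMM scaling (R 4.3.3), and contrasts were tested by the quasi-likelihood F-test (QLF). Adjustment followed Benjamini-Hochberg over all tested genes, and a call had an FDR under 0.05. The standard error is the fold change divided by the root of F. The test was checked before use on simulated counts with 200 changed genes, all with large changes and enough reads. That check does not cover small changes or genes with few reads. Tumors were separate mice, and the 21 pairs within groups had chi-square values of 16.2 to 76.0 for each degree of freedom, far above counting error. Depth was 4940464 to 17638029 reads per tumor.

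The genes and lists were chosen with earlier results of these data known. Named were all 10 members, of each other list the 3 genes with the smallest FDR between EμMyc and Th-MYCN tumors and the gene with the smallest p for Casp2 loss and interaction, 5 most alike genes for Cdkn2a, Mdm2 and Cdkn1a, the transgenes and Casp2, and genes for which a single tumor stood out. One of the genes most like Cdkn2a is not reported here. Alternatives were the likelihood ratio test, DESeq2 1.42.0, other scalings, other strand counts, no low-count filter, a 2-fold minimum, a prior count of 0.5, fits of the compared groups only and leaving out each tumor. Leaving out EuMycC2ko215 and MYCNC2ko176 together was added after seeing the data.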

Additional observations from a re-analysis of the deposited data

Results flagged for a closer look

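Of 30 groups of 4 tumors examined, for the 10 genes in 3 groups, 4 held a tumor whose gap to the nearest other, divided by the range of the group, was above the critical value of Dixon's test at 95%. The ratio was taken on CPM and was not repeated on the log2 scale. Chance flags about 1 in 20 such groups where values are normally distributed, which was not tested. Trp53 in EuMyc829 was at 74.5 CPM, where the nearest of the other EμMyc tumors was at 265 CPM. Cdkn2a in MYCNC2ko144 was at 11.3 CPM, the nearest Th-MYCN/Casp2-/- tumor being at 1.45 CPM. Zmat3 in MYCN175 was at 159 CPM, below the nearest Th-MYCN tumor at 208 CPM, though above every lymphoma. Phlda3 in EuMyc614 was at 9.27 CPM, above the nearest EμMyc tumor at 3.94 CPM. The 3 EμMyc/Casp2-/- tumors were too few for this test, so that EuMycC2ko245, with Trp53 at 90.5 CPM, was not examined by it.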

How the results depend on the processing

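No paired analysis was possible because the tumors came from separate mice and the labels give no pairing between groups. The 5 counts of called genes, the count of relations and the count of tumors with the pattern stayed within 1.5 times. The 103 alternatives are the total over these 7 counts, and not each count was tried under each of them. The pattern was recomputed only under other scalings, other strand counts and another prior count. Neither the pattern nor the count of relations was recomputed leaving out each tumor in turn. With first-strand counts EuMyc835 met the rule as well, which put the count of tumors with the pattern at the limit of 1.5 times. Without single tumors, 5 to 7 genes were called between types with wild type Casp2, 3 to 5 without it, and 0 for Casp2 loss and the interaction. Of the 10 called differences, 0 changed sign and 9 of 160 alternatives lost a call, all of Ccng1, Cdkn2a or Zmat3.

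The differences that changed sign were not called in any setting, and the cause was not tested. In log2 units, Mdm2 for Casp2 loss in lymphoma was 0 with DESeq2 and with its size factors, 0.02 with library totals, 0.02 with first-strand counts and 0.01 without EuMycC2ko215 and MYCNC2ko176. For Casp2 loss in neuroblastoma Mdm2 was -0.01 with library totals, -0.01 with either-strand and -0.04 with first-strand counts. In the interaction it was 0.04 and 0.05 with library totals and first-strand counts, and between types without Casp2 0.03 with first-strand counts. Cdkn2a for Casp2 loss in lymphoma was -0.01 with first-strand counts, and Phlda3 in the interaction -0.02 without the filter. Without EuMycC2ko215 and MYCNC2ko176, Casp2 loss in lymphoma gave 0.12 for Mdm4, 0.08 for Sesn2, -0.36 for Phlda3 and -0.40 for Eda2r, Casp2 loss in neuroblastoma -0.02 for Ccng1, and the interaction 0.24 for Ccng1, 0.28 for Sesn2 and -0.66 for Phlda3. The correlation of Cdkn2a in neuroblastomas was 0.01, 0.05 and 0.08 with Trp53 under library totals, either-strand and first-strand counts, and 0.01 with Sesn2 under library totals.

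Leaving out single tumors gave these ranges where a sign changed. Between types with wild type Casp2, Mdm2 ran from -0.18 to 0.07. For Casp2 loss in lymphoma the ranges were -0.57 to 0.18 for Trp53, -2.24 to 0.83 for Cdkn2a, -0.16 to 0.08 for Mdm2, -0.70 to 0.13 for Mdm4, -0.31 to 0.33 for Ccng1, -1.60 to 0.09 for Sesn2, -0.35 to 0.90 for Phlda3 and -0.39 to 1.73 for Eda2r. For Casp2 loss in neuroblastoma they were -0.08 to 2.63 for Cdkn2a, -0.04 to 0.08 for Mdm2, 0 to 0.37 for Ccng1, -0.30 to 0.19 for Sesn2, -0.16 to 0.06 for Zmat3 and -0.67 to 0.26 for Eda2r. In the interaction they were -3.91 to 0.13 for Cdkn2a, -0.18 to 0.07 for Mdm2, -0.37 to 0.47 for Mdm4, -0.52 to 0.12 for Ccng1, -1.46 to 0.23 for Sesn2, -0.75 to 0.49 for Phlda3 and -0.25 to 1.88 for Eda2r. Eda2r had 0 to 9 reads in each lymphoma, and Cdkn2a had 6 to 47 reads in each neuroblastoma except MYCNC2ko144 (176 reads), which limits their precision.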
